A study of Mus musculus with 6 samples.

Results

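A set of 9 genes of the desmosome and the tight junction, Dsg2, Dsc2, Dsp, Pkp2, Jup, Ocln, Cldn3, Tjp1 and F11r, were followed in CD24- and CD24+ Mvt1 cells. Of these 9 genes, 8 carry reads among the 14764 gene annotations of the deposited libraries, and Dsp was counted from reads that match its transcripts. The genes were chosen by their levels in these libraries, around the low Dsg2 and Ocln and the high Cldn3 of CD24+ cells. The values of the 9 genes are therefore given as a description, and no test of them is reported. The Mvt1 line was derived from mouse mammary carcinoma. The labels give its strain as FVB/N and its cells as mammary epithelial cancer cells. Cells were stained for surface CD24 and separated by flow cytometry into a CD24- and a CD24+ group. RNA was taken from 3 plates of adherent cells of each group, grown in serum-supplemented DMEM with no further treatment. Both groups come from a single line, and no independent sorts are described.

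Desmosomes are button-like contacts that tie the keratin filaments of neighbouring epithelial cells together. Their cadherins, the desmogleins (Dsg) and desmocollins (Dsc), bridge the gap between the cells, the armadillo proteins plakoglobin (Jup) and plakophilin (Pkp) bind the cadherin tails, and desmoplakin (Dsp) links this plaque to keratin. Tight junctions seal the space between epithelial cells near their upper border. Claudins (Cldn) and occludin (Ocln) span the membrane there, junctional adhesion molecule A (F11r) helps to set up the contact and cell polarity, and ZO-1 (Tjp1) is the scaffold beneath them. Loss of both kinds of contact is part of the epithelial-mesenchymal transition.

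In CD24+ cells the RNA of 1 desmosomal cadherin and of the keratin linker was far lower than in CD24- cells. That of Pkp2 and Jup, the armadillo plaque proteins among the 9 genes, was closer to the CD24- level. Desmoglein 2 stood at 2.46% and desmoplakin at 3.48% of the CD24- level, while Pkp2 and Jup stood within 1.5-fold of it. Among the tight junction genes, occludin stood at 5.81%, F11r at 55.2% and ZO-1 at 99.9% of the CD24- level. Dsc2 and Cldn3 were higher in CD24+ cells, both at low levels. Among the 8 annotated genes, 2 had all CD24+ values above and 4 had all CD24+ values below the CD24- values, beside 29.7% and 27.6% of the 11125 genes with enough reads to test. These 6 of 8 genes stand beside 57.3% of all genes in either direction. Counted by exact match, which takes in Dsp, 2 were above and 5 below, or 7 of 9, beside 29.5%, 27.1% and 56.7% of 12116 genes. Since the genes were chosen on this contrast, nothing is read from these counts. In both counts only Jup and Tjp1 had overlapping groups.

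The 6 libraries held 9046025 to 25692147 mapped reads, of which 71.8% to 74.3% carried a gene annotation, and the CD24+ plate 1 library was the shallowest. Values are CPM, the reads of a gene scaled to a common number of gene reads per library, after TMM scaling, where TMM is edgeR's correction for differences in RNA composition. Cd24a, the gene of the sorted marker, had 12.1, 11.5 and 6.99 CPM in the CD24- libraries and 73.3, 85.5 and 72.5 CPM in the CD24+ libraries (log2 fold change 2.91, standard error 0.17, edgeR adjusted p = 5.39e-07). Over all genes, edgeR called 46.1% at an adjusted p below 0.05, 23.8% higher and 22.3% lower in CD24+ cells. By exact match it called 45.6%, with 23.9% higher and 21.7% lower. The chi-square between plates of a group, divided by its degrees of freedom, was 9.69 to 15.9 in CD24+ cells and 10.2 and 11.9 between CD24- plate 3 and the other CD24- plates, while CD24- plates 1 and 2 were closer to each other (1.75).

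Of 8 luminal epithelial markers, 4 had enough reads. Krt8, Krt18 and Krt19, the keratins of simple epithelia, fell, beside 22.3% lower among all tested genes. Cd24a rose, beside 23.8% higher, but the groups were sorted on its protein, so nothing is read from its rise. The summed level of the list was 1854 to 2052 CPM in CD24- and 844 to 977 CPM in CD24+ libraries. Cdh1 (E-cadherin) and Epcam, which define epithelial cells, were at or near 0 in all 6 libraries, with at most 3 reads each. None of 4 basal markers had enough reads, with sums of at most 0.379 CPM in CD24- and 1.02 to 1.57 CPM in CD24+ libraries. Of 7 mesenchymal markers, 6 were tested and 5 rose, beside 23.8% of all tested genes, with sums of 3613 to 4468 against 4334 to 5134 CPM. These sums are almost wholly Vim (vimentin), the tested marker that was not called (log2 fold change 0.17, edgeR adjusted p = 0.248).

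Of 5 leukocyte markers, Cd68 and Itgam were tested and both fell, beside 22.3% of all tested genes. The sums were 46.7 to 80.5 CPM in CD24- and 6.94 to 9.44 CPM in CD24+ libraries. Ptprc, which defines leukocytes, had no read in any CD24- library. Of 5 endothelial markers, 2 were tested and 1 fell (Cdh5), beside the same 22.3%, while Tek was not called. The sums were 2.25 to 3.98 against 0.681 to 1.89 CPM. By exact match Tek had at most 1 read in any library and was not tested. Cdh5 alone was then tested and fell, beside 21.7% lower among all genes, with sums of 1.64 to 2.52 against 0.318 to 0.790 CPM. Cd68, Itgam and Cdh5 were lower in CD24+ cells, as were Dsg2, Dsp and Ocln, while Dsc2 and Cldn3 were higher and Tjp1 was even. The part of these markers in the result was not tested. In bulk RNA, fewer cells of a type and less RNA per cell cannot be told apart.

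The deposited data are 47-base read sequences with their counts. The most counted sequences that lie wholly in the coding part of Dsp, Ocln, Cldn3 and Tjp1 are printed to show what the counts rest on, in lower case, 5′ to 3′ in the sense of the transcript. Positions are those of the mm9 mouse genome in the deposited files. Dsp lies on the plus strand of chromosome 13, Ocln on the minus strand of chromosome 13, Cldn3 on the plus strand of chromosome 5 and Tjp1 on the minus strand of chromosome 7.
Dsp sequence 1 (chr13:38270381-38270427): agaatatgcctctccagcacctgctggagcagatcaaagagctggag
Dsp sequence 2 (chr13:38286588-38286634): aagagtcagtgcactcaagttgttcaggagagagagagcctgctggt
Ocln (chr13:101281422-101281468): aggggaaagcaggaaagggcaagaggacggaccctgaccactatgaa
Cldn3 (chr5:135462433-135462479): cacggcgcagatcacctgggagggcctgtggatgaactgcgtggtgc
Tjp1 (chr7:72474557-72474603): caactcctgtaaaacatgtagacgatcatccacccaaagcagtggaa
Dsp sequence 1 was read 23, 14 and 23 times in CD24- libraries 1, 2 and 3 and 0, 2 and 0 times in CD24+ libraries 1, 2 and 3. Dsp sequence 2 was read 13, 9 and 19 times against 0, 1 and 0 times. Both Dsp sequences, which lie in exons of the coding part, have no annotation in the deposited files. The Tjp1 sequence was read 12, 11 and 4 times in CD24- and 8, 13 and 13 times in CD24+ libraries, so a gene at equal level gave this sequence in every library. The Ocln sequence was read 2, 4 and 2 times against 0, 2 and 0 times. For Cldn3, even the most counted sequence was read only once each in CD24+ libraries 1 and 3 and in no other library.

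Desmoplakin (Dsp, chr13:38151294-38198577 on the plus strand of GRCm38) is the plakin that connects the desmosomal plaque to keratin filaments. No read is annotated to Dsp in the files. Across the 6 libraries, however, 29625 reads of 8656 distinct sequences matched Dsp transcripts of GENCODE M21 and those of no other gene, and 99.9% of them carried no annotation. Counted in this way, Dsp had 915, 894 and 1220.5 CPM in the CD24- libraries. In the CD24+ libraries it had 34.8, 37.3 and 33.5 CPM. Every CD24- library was far above every CD24+ library. The group means were 1010 ± 183 and 35.2 ± 1.91 CPM (SD, n = 3 each), a difference of -4.84 on the log2 scale (standard error 0.15), or 28.7-fold. In the same exact-match counts, 33 of 12116 genes were further below. Counting each distinct sequence once gave -3.84. The CD24- values rested on 8470, 9226 and 10431 reads and the CD24+ values on 220, 646 and 632 reads, so Dsp was well measured in both groups.

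The reads lay along the Dsp transcript except its start, where the first 20th held at most 0.432 CPM in any library. Of the reads placed on it, 91.7% fell in the coding sequence, and the CD24+ level was 3.86%, 3.72% and 3.07% of the CD24- level in its first, middle and last part, cut at equal lengths. The low level in CD24+ cells was therefore seen in all 3 parts.

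**Figure D1:**
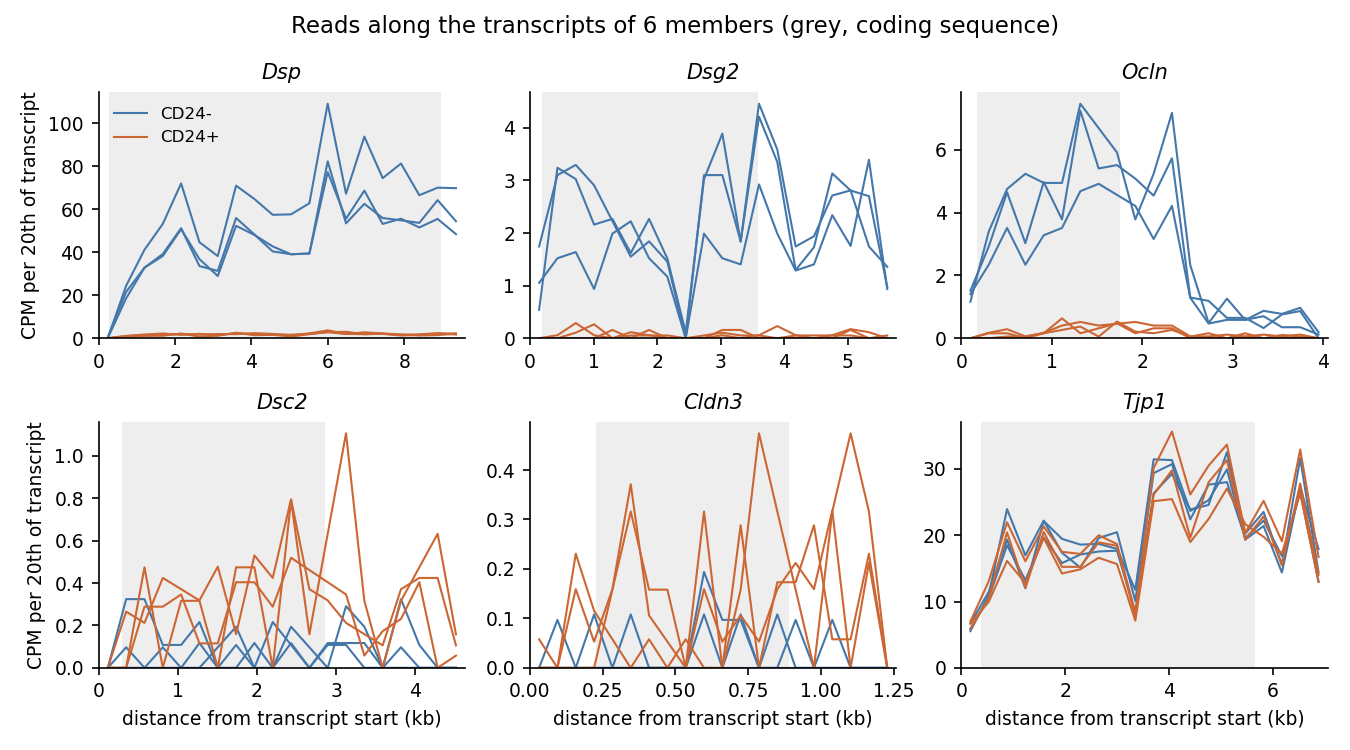
Reads along the transcripts of 6 of the genes, as CPM in each 20th of the transcript (y axis, linear) against distance from the transcript start in kb (x axis). There is 1 line for each of the 3 CD24- (blue) and 3 CD24+ (orange) libraries, and grey marks the coding sequence. The CD24+ lines for Dsp, Dsg2 and Ocln stay near 0 over their whole length, at 3.72%, 2.01% and 6.03% of the CD24- level in the middle part of the transcript, while those for Tjp1 overlap the CD24- lines.

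Desmoglein 2 (Dsg2, chr18:20558074-20604521 on the plus strand of GRCm38) is the desmosomal cadherin of simple epithelia. It had 36.7, 37.4 and 24.7 CPM in the CD24- libraries and 0.629, 0.960 and 0.838 CPM in the CD24+ libraries. The CD24- plate 3 library was the lowest of its group and still far above all CD24+ libraries, where Dsg2 rested on 4, 17 and 16 reads. The group means were 32.9 ± 7.16 and 0.809 ± 0.167 CPM, a difference of -5.26 on the log2 scale (standard error 0.24), or 38.2-fold. Only 17 of the 11125 genes were further below. Matching reads to transcripts gave more Dsg2 reads, 1233 in place of 1000 annotated ones, of which 267 carried no annotation. On these counts Dsg2 had 45.7, 46.5 and 33.0 CPM in CD24- and 0.790, 1.33 and 1.06 CPM in CD24+ libraries, and the difference was -5.21. The annotation thus missed part of the Dsg2 reads in both groups, and the contrast differed little. CD24+ values were 3.45%, 2.01% and 2.22% of the CD24- level in the first, middle and last part of the transcript.

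Desmocollin 2 (Dsc2, chr18:20030633-20059554 on the minus strand of GRCm38) is the partner cadherin of Dsg2 in the same junction. It differed in the opposite direction, at a much lower level. It had 2.10, 1.33 and 0.676 CPM in the CD24- libraries and 6.45, 4.80 and 6.44 CPM in the CD24+ libraries. These values rest on 20, 14 and 6 reads against 41, 85 and 123 reads. The groups did not overlap, with means of 1.37 ± 0.715 and 5.90 ± 0.951 CPM and a difference of 2.07 on the log2 scale (standard error 0.33), or 4.21-fold. Of the 11125 genes, 561 were further above. The spread among CD24- libraries was wide, with a coefficient of variation of 52.2% against 16.1% in CD24+ libraries. The CD24+ level was above the CD24- level in every part of the transcript, but the CD24- libraries held only 14, 15 and 11 reads in the 3 parts.

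The order of these 2 cadherins therefore differed between the groups. Per kilobase of transcript, Dsg2 was at 16.98, 27.5 and 37.7 times the level of Dsc2 in the CD24- libraries and at 0.0956, 0.217 and 0.131 times in the CD24+ libraries. The Dsc2 level of CD24+ cells (1.30 CPM per kb) was still far short of the Dsg2 level of CD24- cells (7.24 CPM per kb).

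Plakophilin 2 (Pkp2, chr16:16213318-16272712 on the plus strand of GRCm38), an armadillo protein of the plaque, had 55.2, 56.3 and 75.3 CPM in the CD24- libraries and 49.7, 42.1 and 46.6 CPM in the CD24+ libraries. All CD24+ libraries were below all CD24- libraries, but by little. The difference was -0.44 on the log2 scale (standard error 0.13), between means of 62.3 ± 11.3 and 46.1 ± 3.81 CPM. The CD24+ share was 78.7%, 77.2% and 67.4% of the CD24- level in the first, middle and last part of the Pkp2 transcript. Plakoglobin (Jup, chr11:100368958-100397763 on the minus strand of GRCm38), shared by desmosomes and adherens junctions, had 188, 214 and 162 CPM in the CD24- libraries. In the CD24+ libraries it had 158, 123 and 179 CPM. The groups overlapped, with means of 188 ± 26.1 and 153 ± 28.3 CPM and a difference of -0.29 on the log2 scale (standard error 0.14). Along the Jup transcript the CD24+ share was even, at 82.3%, 79.4% and 79.6%. Of the 11125 genes, 1729 were further below than Pkp2 and 2587 further below than Jup.

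**Figure D2:**
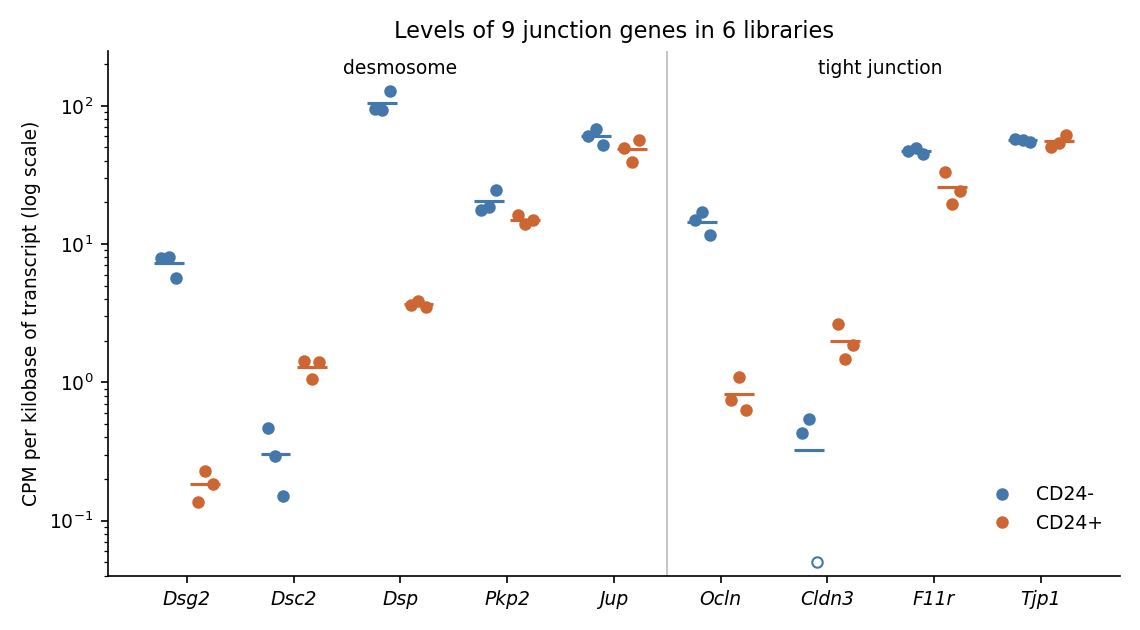
Level of each of the 9 genes in each library, as CPM per kilobase of transcript on a log scale (y axis), for CD24- (blue) and CD24+ (orange) libraries. Points are the 3 libraries of a group, lines are group means, and the open point is the CD24- library with no Cldn3 read, drawn at the bottom of the axis. Dsp is the highest in CD24- cells at 105 CPM per kb and stands at 3.67 CPM per kb in CD24+ cells, and only Jup and Tjp1 overlap between groups.

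Occludin (Ocln, chr13:100496507-100552718 on the minus strand of GRCm38), a membrane protein of the tight junction, had 53.5, 59.4 and 41.7 CPM in the CD24- libraries. In the CD24+ libraries it had 2.67, 3.95 and 2.36 CPM. The groups were far apart, with means of 51.6 ± 9.03 and 2.99 ± 0.844 CPM and a difference of -4.08 on the log2 scale (standard error 0.21), or 16.9-fold. Of the 11125 genes, 48 were further below. CD24+ values were 4.89%, 6.03% and 8.04% of the CD24- level in the first, middle and last part of the transcript. The last part held few reads (118 in the CD24- libraries and 16 in the CD24+ libraries), so its share is the least precise. With median coverage per gene and an added regularizer of 10, the differences were -0.67 for Ocln, -0.44 for Dsg2 and -2.58 for Dsp.

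Claudin 3 (Cldn3, chr5:134986214-134987472 on the plus strand of GRCm38) is a sealing claudin encoded by a single exon. It was scarce in both groups, with 109 reads in all. It had 0.526, 0.663 and 0 CPM in the CD24- libraries and 3.30, 1.81 and 2.30 CPM in the CD24+ libraries. These are 5, 7 and 0 reads against 21, 32 and 44 reads. The absence of a read in the CD24- plate 3 library allows a level of up to 0.338 CPM, as 3 reads would give, a limit that covers counting error only. All CD24+ libraries were above all CD24- libraries, with means of 2.47 ± 0.762 and 0.396 ± 0.350 CPM. The fitted difference was 2.47 on the log2 scale (standard error 0.54), or 5.53-fold. Of the 11125 genes, 467 were further above. The difference depended on single libraries, at 1.93 without CD24- plate 3 and 3.06 without CD24- plate 2.

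Junctional adhesion molecule A (F11r, chr1:171437535-171464603 on the plus strand of GRCm38), an immunoglobulin-family adhesion protein, had 117, 124 and 112 CPM in the CD24- libraries and 84.8, 49.1 and 61.2 CPM in the CD24+ libraries. It was intermediate between Ocln and Tjp1. All CD24+ libraries were lower, with means of 118 ± 5.98 and 65.0 ± 18.1 CPM and a difference of -0.88 on the log2 scale (standard error 0.16). CD24+ plate 1 was the closest to the CD24- group. The CD24+ share was 53.7%, 55.7% and 57.6% in the 3 parts of the transcript, so the lower level was even along it. Of the 11125 genes, 715 were further below.

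ZO-1 (Tjp1, chr7:65296165-65527781 on the minus strand of GRCm38) had 400, 400 and 382 CPM in the CD24- libraries and 358, 384 and 438 CPM in the CD24+ libraries. The groups overlapped and their means were 394 ± 10.4 and 393.5 ± 40.8 CPM. The difference was -0.00 on the log2 scale with a standard error of 0.09. Along the transcript, on which 28034 reads were placed, the CD24+ share was 96.3%, 94.3% and 103%. ZO-1 was thus the gene of the set with the most even level between the groups.

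Levels of different genes were compared per kilobase of transcript. In CD24- cells the order was Dsp (105 ± 19.04 CPM per kb), Jup (60.2), Tjp1 (56.4), F11r (46.95), Pkp2 (20.3), Ocln (14.5), Dsg2 (7.24), Cldn3 (0.323) and Dsc2 (0.304). Jup and Tjp1 overlapped in their libraries, as did Cldn3 and Dsc2, and the other neighbours in this order did not. In CD24+ cells the order was Tjp1 (55.3), Jup (48.3), F11r (25.8), Pkp2 (15.03), Dsp (3.67), Cldn3 (1.99), Dsc2 (1.30), Ocln (0.822) and Dsg2 (0.184). Here Tjp1 and Jup overlapped, as did Dsc2 and Ocln. Cldn3 cleared Dsc2 only narrowly, with a lowest value of 1.47 against a highest of 1.43 CPM per kb. Desmoplakin was thus in the first place in CD24- and the fifth in CD24+ cells, and Dsg2 in the seventh and the last.

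Ratios between the transcripts of partner proteins were taken in each library. Per kilobase, Dsp was at 1.59, 1.36 and 2.44 times the level of Jup in the CD24- libraries and at 0.0731, 0.0998 and 0.0619 times in the CD24+ libraries. Jup was at 3.39, 3.67 and 2.12 times the level of Pkp2 in CD24- and at 3.06, 2.81 and 3.75 times in CD24+ libraries, so this ratio overlapped between the groups. The mean ratio of Ocln to Tjp1 was 0.257 in CD24- and 0.0151 in CD24+ cells, and that of F11r to Tjp1 was 0.832 and 0.474. The size of both ratios depends on the transcript lengths taken.

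Lists of other desmosome and tight junction genes were made with earlier results of these data known. Other desmosome genes, which the choice of the 9 genes did not name, were tested. The theme was chosen on this same contrast, so their calls are not independent of that choice. Of 14 listed, 11 had reads and 5 had enough to test, and all 5 were called, 1 higher and 4 lower (median log2 fold change -1.88, against 0.02 over all tested genes). Of all tested genes, 46.1% were called, 23.8% higher and 22.3% lower. Dsg3, Dsc3 and Pkp1, genes of stratified epithelia, had at most 4 reads in any library. Perp, a membrane protein needed for desmosome assembly, fell from 226, 225 and 280 CPM to 58.2, 56.9 and 51.6 CPM (log2 fold change -2.14, standard error 0.11, edgeR adjusted p = 1.96e-07). Pkp3, a plakophilin of most epithelial desmosomes, fell from 29.9, 28.3 and 30.0 CPM to 8.49, 8.98 and 6.76 CPM (-1.88, edgeR adjusted p = 2.25e-06). For both genes every CD24+ library was below every CD24- library.

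The remaining genes of the desmosome list are linkers and a plakophilin relative. Envoplakin (Evpl), a plakin like desmoplakin, fell from 6.52, 6.35 and 5.86 CPM to 0.472, 0.903 and 0.786 CPM (-2.99, edgeR adjusted p = 6.33e-06). Its partner periplakin (Ppl) fell by only 0.37 on the log2 scale (edgeR adjusted p = 0.0268). That call was lost without CD24- plate 1 (adjusted p = 0.0513 by edgeR) and without CD24- plate 2 (adjusted p = 0.0869 by edgeR). Pkp4, which also binds classical cadherins, rose by 0.37 (edgeR adjusted p = 0.00696).

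Of 59 other tight junction genes, 28 had enough reads to test. Of these, 11 rose, 5 fell and 12 were not called, with a median log2 fold change of 0.10. The called share was 57.1%, beside 46.1% of all tested genes, of which 23.8% were higher and 22.3% lower. By exact match, 32 were tested, of which 13 rose and 9 fell, a called share of 68.8% beside 45.6% of all genes (23.9% higher and 21.7% lower). The largest increases were in polarity scaffolds and in an adhesion protein. Mpdz, a scaffold of many PDZ domains, rose from 15.7, 14.2 and 12.3 CPM to 177, 178 and 198 CPM (3.71, standard error 0.11, edgeR adjusted p = 7.97e-09). Its paralog Patj, listed under the older symbol Inadl, rose from a low level (0.549 to 3.22 CPM on average, 2.52, edgeR adjusted p = 6.80e-05). Pard6g, a polarity adaptor, rose from 1.30 to 9.63 CPM on average (2.87, edgeR adjusted p = 4.37e-06). Cxadr, an adhesion protein of the same family as F11r and the receptor of coxsackieviruses and adenoviruses, rose from 4.63, 7.01 and 5.63 CPM to 42.8, 35.7 and 43.7 CPM (2.81, edgeR adjusted p = 4.86e-07).

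Polarity proteins and scaffolds were among the genes that fell. Pard6b, a paralog of Pard6g, fell by 0.68, Mpp5 (PALS1) by 0.58, Magi1 by 0.50 and Arhgap17 by 0.45 on the log2 scale (edgeR adjusted p of at most 0.00846 each). Cldn1, a barrier-forming claudin, rose from 1.28 to 6.32 CPM on average (2.36, edgeR adjusted p = 0.000534). Smaller increases were called in Amotl2 (1.01), Pard6a (0.65), Cldn12 (0.62), Amotl1 (0.56), Cgnl1 (0.40) and Arhgef2 (0.39), with edgeR adjusted p of at most 0.0169. The Arhgef2 call was lost without CD24- plate 1, CD24+ plate 1 or CD24+ plate 3 (edgeR adjusted p of 0.0588, 0.0666 and 0.0771).

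Among genes with a mean of at least 20 CPM, Magi3, Lin7c, Pard3, Prkci, Amot, Ybx3, Tjap1 and Cldnd1 were not called, with log2 fold changes from -0.25 (Lin7c) to 0.21 (Prkci). For a pair of them the call turned on a single library. Lin7c was called lower without CD24+ plate 2 (-0.37, edgeR adjusted p = 0.00483), and Prkci was called higher without CD24- plate 3 (0.33, edgeR adjusted p = 0.00651). Marveld2 (tricellulin), a relative of occludin at the corners where 3 cells meet, had too few reads to test, at 11, 8 and 11 reads in CD24- and 1, 0 and 0 reads in CD24+ libraries. The epithelial claudins Cldn4 and Cldn7 had at most 8 reads in any library.

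**Figure D3:**
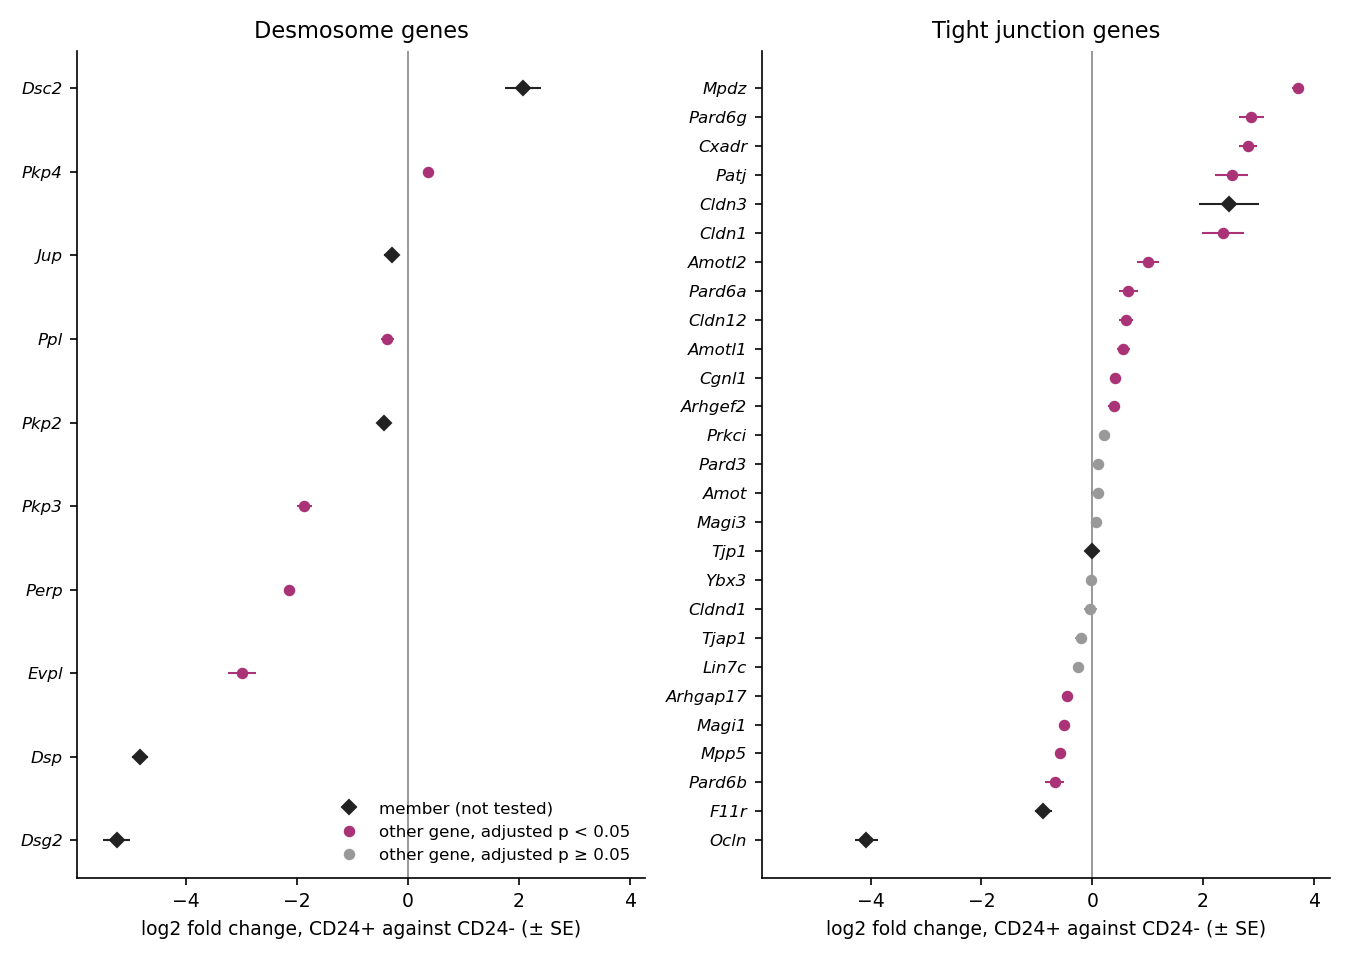
Log2 fold change of CD24+ against CD24- cells (x axis, bars are standard errors) for desmosome genes and tight junction genes named in the text (rows). Dark diamonds are the 9 genes described here, for which no test is reported, and circles are other genes, coloured where the edgeR adjusted p was below 0.05. Dsg2 (-5.26), Dsp (-4.84) and Ocln (-4.08) lie at the far left, Tjp1 sits at 0, and Mpdz (3.71) is the furthest to the right.

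Regulators of junction genes were listed too. Snai2, Zeb1, Zeb2 and the Twist factors repress epithelial junction genes, and Klf4, Klf5, Grhl and Ovol factors maintain epithelial ones. Of 15 listed, 8 were tested, of which 5 rose and 2 fell, beside 23.8% and 22.3% of all tested genes. Snai2 rose from 0.452 to 4.80 CPM on average (log2 fold change 3.43, edgeR adjusted p = 1.28e-05), on 4 to 5 reads in each CD24- library. Twist2 rose from 3.05, 3.41 and 3.94 CPM to 45.0, 31.6 and 31.95 CPM (3.36, edgeR adjusted p = 4.78e-07). By exact match Twist2 was lower in all libraries, at 0.540, 0.872 and 0.819 CPM against 15.5, 10.3 and 9.70 CPM (3.93, edgeR adjusted p = 3.39e-06). Zeb2 rose by 1.47 and Twist1 by 0.86, while the more abundant Zeb1 fell by 0.36 (edgeR adjusted p of at most 0.00605). Of the factors that maintain epithelia, Klf4 rose by 2.02 and Klf5 fell by 0.69 (edgeR adjusted p of at most 0.000656). Snai1 was not called (0.16, edgeR adjusted p = 0.298). Grhl2, Ovol1 and Elf3 had at most 4 reads in any library.

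The nearest tested genes on each side of the junction genes were compared with them. Dsg2 and Dsc2 lie next to each other among tested genes, 498.52 kb apart, and had opposite differences. On the other side of Dsg2, B4galt6, a glycosyltransferase gene 80.1 kb away, rose (log2 fold change 2.47, edgeR adjusted p = 2.68e-06). The other neighbour of Dsc2 is Cdh2, the gene of N-cadherin and 3221 kb away, which rose from 4.65, 5.14 and 4.80 CPM to 69.1, 67.5 and 64.2 CPM (3.78, edgeR adjusted p = 8.11e-09). The genes beside Dsp fell, but far less than the difference in Dsp, with Snrnp48 at -1.26 and Riok1 at -1.13 (edgeR adjusted p of at most 1.11e-05). Those beside Ocln, Gtf2h2 and Rad17, fell by 0.61 and 0.46 (edgeR adjusted p of at most 0.00589).

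Next to Jup, both Hap1 (0.94) and P3h4 (3.27) rose, whereas Jup itself overlapped between groups (edgeR adjusted p of at most 0.000234). Beside Cldn3, Abhd11 fell by 0.61 (edgeR adjusted p = 0.00424) and Mettl27 was not called (-0.61, edgeR adjusted p = 0.0939), though it was called without CD24- plate 3 (edgeR adjusted p = 0.0181) or CD24+ plate 3 (edgeR adjusted p = 0.0410). Beside F11r, Usf1 fell by 0.64 (edgeR adjusted p = 0.000882) and Alyref2 was not called. Neither neighbour of Pkp2 (Spidr, Yars2) or Tjp1 (Nsmce3, Tarsl2) was called, except Tarsl2 without CD24- plate 3 (edgeR adjusted p = 0.0292).

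The genes most like 3 of the members were sought by the distance between log2 CPM profiles over the 6 libraries, each centred on its mean. For Dsg2 the nearest of 9204 genes were Add2 (distance 0.762), 1600029D21Rik (0.928) and Selp (0.989). For Ocln they were Filip1 (0.487), Pappa2 (0.667) and Ydjc (0.721). For Cldn3, Ckb (1.03) and Fads2 (1.04) were among the nearest 3, so its sparse profile was matched less closely. Add2 had 84.0, 84.0 and 35.8 CPM in CD24- and 2.04, 2.54 and 2.57 CPM in CD24+ libraries, with CD24- plate 3 the lowest of its group as for Dsg2. Selp had 144, 136 and 188 CPM against 3.46, 3.39 and 4.77 CPM, with CD24- plate 3 the highest of its group.

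RefSeq promoter sequences of GRCm38.p6 were searched because the junction repressors of the Snai and Zeb families bind the E-box CAGGTG. Windows of 250 bases before a start site were searched for 6 of the genes (7 windows). Dsg2 and Dsc2 were left out of this search, and no window was at hand for Pkp2. On either strand, CAGGTG occurred in 17.2% of all 32851 windows of this length. It occurred in 2 places in 1 of the Ocln windows, at 213 and 68 bases before that start, and in 1 place in F11r, 122 bases before the start. It did not occur in the windows of Dsp, Cldn3, Jup and Tjp1 or in the other Ocln window, which lies directly before the Ocln gene span given above. Both places in Ocln lie inside that span. The TATA box letters TATAAA (12.4% of all windows, either strand) occurred in none of the 7 windows. The Ocln elements are shown with 12 bases on each side, since this window holds the E-box more than once, with CAGGTG in capitals.
Ocln element 1 (chr13:100552694-100552723, minus strand): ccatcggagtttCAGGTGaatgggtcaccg
Ocln element 2 (chr13:100552549-100552578, minus strand): ctaggggctcggCAGGTGggtcccagcgca
The windows of Dsp and Cldn3 are shown as the gene with the most reads among the low ones and as the higher claudin, neither with a match, so no letter is in capitals.
Dsp (chr13:38151044-38151293, plus strand): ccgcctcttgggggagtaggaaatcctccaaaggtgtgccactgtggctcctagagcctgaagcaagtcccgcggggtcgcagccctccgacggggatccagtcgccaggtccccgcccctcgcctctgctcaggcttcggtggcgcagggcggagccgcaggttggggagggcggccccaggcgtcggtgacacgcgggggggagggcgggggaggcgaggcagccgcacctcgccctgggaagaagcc
Cldn3 (chr5:134985964-134986213, plus strand): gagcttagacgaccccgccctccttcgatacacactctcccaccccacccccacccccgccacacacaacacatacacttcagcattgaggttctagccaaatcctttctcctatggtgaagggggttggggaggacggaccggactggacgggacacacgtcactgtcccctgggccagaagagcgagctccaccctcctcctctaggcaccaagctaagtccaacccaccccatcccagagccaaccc
The Dsp window is rich in G and C, at 72.4% against a median of 52.4% over all windows, and the Cldn3 window is at 60.8%. A match is a description of the letters only and does not show binding.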

How the data were processed

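RNA libraries of 3 plates each of CD24- and CD24+ Mvt1 cells were made with a kit that does not keep strand. The authors collapsed the reads to distinct 47-base sequences, mapped them to the genome by exact match and deposited the count of each with its location and annotation, neither normalized nor pooled. The build is mm9 per the submitters' processing notes. Neither the mapping tool nor the origin of the annotations is given in the sources used here. Exact mapping loses most reads across exon junctions, and overlapping genes cannot be told apart.

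The deposited counts were summed per gene symbol, without repeats (5.93% to 7.83% of reads), small or noncoding RNA and reads with no annotation (16.9% to 20.2%). Because Dsp has no annotation, reads were also assigned by exact match to transcripts of a single GENCODE M21 gene (GRCm38). These gave all values for Dsp, per kilobase, along transcripts and for neighbours. Genes passing filterByExpr were tested with edgeR 4.0.16 in R 4.3.3 (TMM, quasi-likelihood F test, Benjamini-Hochberg adjustment over all tested genes, threshold 0.05), and the steps were tested on simulated data.

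The members and lists were chosen with earlier results of these data known. Named genes are the members, in each list the 4 largest called increases and decreases and genes with a mean of at least 20 CPM, the 3 genes nearest in profile to Dsg2, Ocln and Cldn3 (log2 CPM averaging 3 or more), Cd24a and tested neighbours. Other genes, such as Cldn1, Pard6a and Marveld2, were named after their values were seen. Some genes that the rule names are not reported here. No independent sorts are described, so p-values measure the spread between plates. Alternatives were DESeq2 1.42.0, other filters, no TMM, distinct sequences, the study's median coverage with limma 3.58.1, a replicate block and each library left out.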

Additional observations from a re-analysis of the deposited data

Results flagged for a closer look

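Of the listed junction genes that no annotation names, 4 had over 18 reads without any annotation in the files, which enter none of the counts by annotation. Reads without an annotation that match transcripts of only that gene numbered 29585 for Dsp, 13220 for Sympk, 3542 for Marveld1 and 770 for Cgn over the 6 libraries. By exact match, Marveld1, a relative of occludin, rose from 26.3, 30.4 and 22.0 CPM to 60.5, 68.5 and 66.4 CPM (log2 fold change 1.31, edgeR adjusted p = 1.17e-05), and Cgn (cingulin), which links tight junctions to actomyosin, fell from 14.6, 15.9 and 17.8 CPM to 7.90, 8.13 and 7.64 CPM (-1.03, edgeR adjusted p = 0.000182). Sympk (symplekin) fell by 0.21 on the log2 scale (edgeR adjusted p = 0.0344). Of the listed junction genes, 20 have no annotation, and the others of these had at most 18 reads without any annotation. Among them, Cldn20 had 30 reads that match it alone, all of which carry another annotation. Groups of 3 libraries were not tested for single libraries that stand apart.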

How the results depend on the processing

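Of 165 recomputed values, 152 moved by less than the spread between plates (differences of the 9 genes) or stayed within 1.5 times (counts of called genes). Among these, the Tjp1 difference, which is near 0, took either sign. Counting each distinct sequence once gave log2 differences of -4.92 for Dsg2, -3.84 for Dsp and -3.67 for Ocln, and the cause was not tested. With the study's median coverage, quantile normalization and a regularizer of 10, which by construction draws low genes to 0, they were -0.44 for Dsg2, -2.58 for Dsp, -0.67 for Ocln, -0.49 for F11r and -0.23 for Pkp2, Dsc2 and Cldn3 could not be tested, and limma called 3152 of 9025 genes (1493 higher, 1659 lower) against 5130 by edgeR on counts. Leaving out 1 library in turn gave 1.93 to 3.06 for Cldn3, 1.77 to 2.50 for Dsc2, -4.39 to -3.88 for Ocln and -0.10 to 0.05 for Tjp1, and 4069 to 5358 called genes.

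With the replicate number as a block, 4493 genes were called, Dsg2 was at -5.21 and Cldn3 at 2.56, and 5 and 16 genes of the desmosome and tight junction lists were called, as without it. Plates with the same number did not deviate together (correlations of their deviations from the group means 0.0388, -0.323 and -0.351 over 6300 genes), so the numbers are not taken to pair them.

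For the other named genes, 682 of 719 values kept direction and call. The direction turned for genes that were not called. With distinct sequences Yars2 was at 0.0299 and Nsmce3 at 0.0596, and with median coverage Yars2 was at 0.0014, Ybx3 at 0.0891, Pard3 at -0.0956 and Spidr at -0.0161. By exact match Ybx3 was at 0.0061. Leaving out 1 library in turn gave ranges of -0.140 to 0.0055 for Yars2, -0.121 to 0.0397 for Nsmce3, -0.0884 to 0.0126 for Ybx3, -0.0384 to 0.168 for Amot, -0.0038 to 0.109 for Magi3 and -0.119 to 0.0922 for Cldnd1. Calls of Arhgef2, Cgnl1, Pard6b and Zeb1 were lost with distinct sequences (edgeR adjusted p of 0.132, 0.0890, 0.0712 and 0.0975), and those of Abhd11, Pard6b and Usf1 with median coverage (limma adjusted p of 0.0678, 0.424 and 0.318). Lin7c was called with DESeq2, without TMM and by exact match, and Mettl27 with DESeq2, without a filter and without CD24- plate 3 or CD24+ plate 3. Tarsl2 was called without CD24- plate 3. Depth limits Cldn3 and Dsc2 most, at 109 and 289 reads in all.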
